A study of Mus musculus with 3 samples.

Results

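The 10 genes described here, *Ptprc*, *Spi1*, *Csf1r*, *Tyrobp*, *Fcer1g*, *Cd14*, *Lyz2*, *Cd68*, *Acp5* and *Laptm5*, are commonly used to mark myeloid cells and osteoclasts. They are a list of gene symbols matched to the array through the RefSeq accession of each probe, and the matching rule uses no measured value. The 10 genes and the lists set beside them were, however, chosen with earlier results of these data known. Their shares beside those of all genes are therefore descriptive only. The array read them with 14 of 32994 named probes, and they are 10 of the 22911 genes that could be named. They were measured in Colon26, a murine colon adenocarcinoma line, in its high-metastatic subline LuM1 and in its low-metastatic subline NM11. The labels give BALB/c, female, for all 3 lines. All were kept in RPMI1640 medium with 10% FBS and antibiotics and antimycotic and grown for 3 days on their own, without added immune cells or a treatment. From each line, 0.1 µg of total RNA was labelled with Cy3 and hybridized to 1 single-colour array. There were no replicates, so each value below is from 1 culture, no test could be run, and a difference between lines has no replicate check.

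Myeloid cells arise from haematopoietic progenitors in which the transcription factor PU.1, encoded by *Spi1*, switches on lineage genes such as the receptor for macrophage colony-stimulating factor. Monocytes and macrophages ingest particles and digest them in lysosomes, and they sense bacterial products through surface receptors. Osteoclasts, the cells that resorb bone, fuse from precursors of the same lineage under macrophage colony-stimulating factor and RANKL, with costimulation through receptors that signal by the adaptors DAP12 and the Fc receptor gamma chain. Several of these genes are also transcribed in other cells, among them tumor cells.

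All arrays shared 1 slide and 1 scan. The scaled signal used here is the scanner's background-corrected brightness, brought to the same 75th percentile of 585.1 on each array. Errors written with ± are those of the scanner software and cover technical error only. The software flags each spot that it calls well above background, and here a gene counts as detected only with that flag. It flagged between 49.9% and 53.8% of the probes per array and marked none as saturated. Where 1 line of a pair was not detected, the ratio is a bound. It was taken against the higher of the dim probe's own signal and the dimmest detected signal on that array (26.4 in Colon26, 20.1 in LuM1 and 19.6 in NM11), and the text gives it with the words "at least". Of the 10 genes, 4 had 2 named probes, and such a gene is represented by the brighter one.

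In LuM1 cells, 6 of the 10 genes were detected, against 4 in Colon26 cells and 4 in NM11 cells. Among all named genes the detected shares were 59.9%, 56.9% and 59.1%, respectively. *Csf1r*, *Cd14*, *Fcer1g* and *Cd68* were detected on all 3 arrays (53.5% of all genes). *Lyz2* and *Acp5* were detected in LuM1 cells only (3.14% of all genes). *Spi1*, *Ptprc*, *Tyrobp* and *Laptm5* were detected on no array (35.3% of all genes). At a threshold of 2-fold, counting bounds, 5 of the 10 genes were higher in LuM1 cells than in Colon26 cells (8.1% of all genes) and none was lower (7.33%). The number higher in LuM1 than in NM11 was 4 (6.98% of all genes), with none lower (5.35%). *Cd14*, *Lyz2*, *Cd68* and *Acp5* passed the threshold upward against both other lines, which held for 4.74% of all genes, and none passed it downward against both (2.61%). At 4-fold, 3 genes were higher in LuM1 than in Colon26 (3.7% of all genes) and 4 were higher than in NM11 (2.87%). Since RNA was taken from whole cultures, more cells that express a gene and more RNA per cell cannot be told apart for any of these differences.

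**Figure D1:**
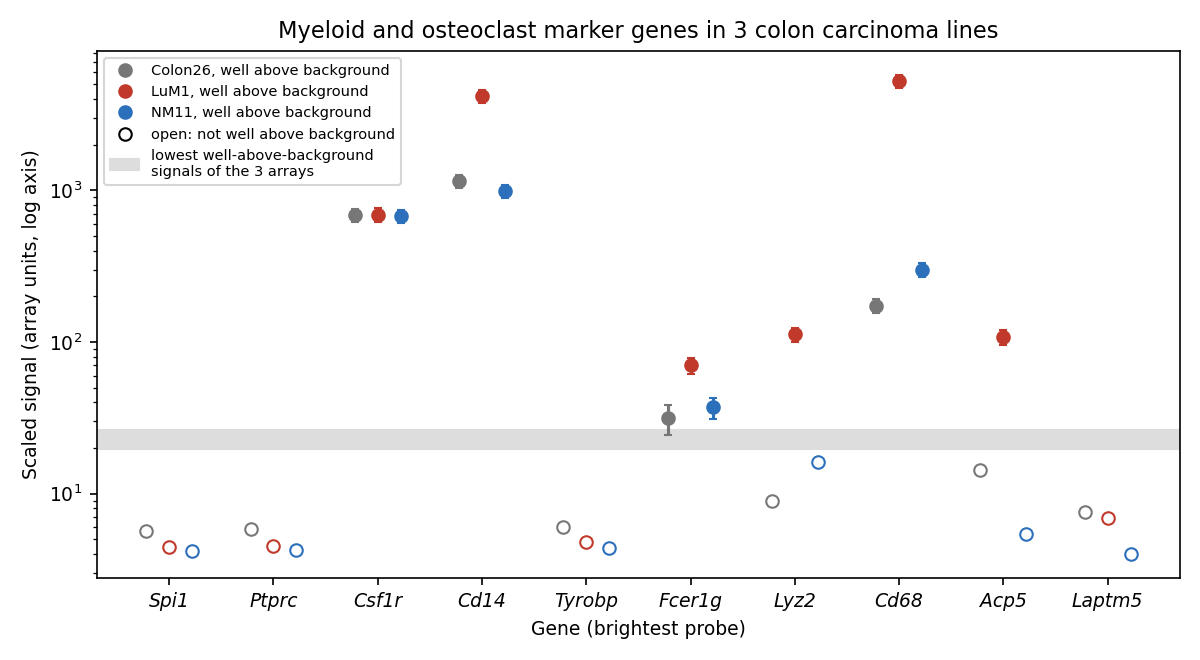
Scaled signal (log axis) of the brightest probe of each of the 10 genes in Colon26 (grey), LuM1 (red) and NM11 (blue), with scanner errors as bars, 1 array per line. Open points were not well above background, and the grey band spans the dimmest detected signals of the 3 arrays (19.6 to 26.4). The LuM1 point stands above both others for *Cd14*, *Cd68*, *Lyz2*, *Acp5* and, by a smaller margin, *Fcer1g*, while all 3 points coincide for *Csf1r*.

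*Spi1* encodes PU.1, the factor on which the myeloid lineage depends. Its 1 probe (A_52_P498086, NM_011355) was not significantly above background on any array, and the scaled values of 5.71 in Colon26 and 4.42 in LuM1, like that in NM11, are in effect the scanner's error written in place of a signal. The brightness after background subtraction, before scaling, was 2.10 in Colon26, 0.692 in LuM1 and 3.73 in NM11. Each array also carries 308 negative control spots, designed to match no transcript of the mouse. Of these, 44, 43 and 19, respectively, were as bright as *Spi1* or brighter. The *Spi1* spot was therefore within the range of the negative controls in every line.

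The receptor tyrosine phosphatase CD45, encoded by *Ptprc*, is carried by nearly all nucleated blood cells. Neither *Ptprc* probe (A_52_P11901 and A_52_P677117, NM_011210) was significantly above background in any line. The brighter one had background-subtracted values of -1.98 in Colon26, -3.32 in LuM1 and 1.22 in NM11. Of the 308 negative controls, 81 in Colon26, 126 in LuM1 and 33 in NM11 were at least as bright as that probe. For the other probe the counts were 170, 192 and 26 in the same order. A leukocyte marker that defines the whole compartment thus had no signal distinguishable from the negative controls in any of the 3 lines.

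*Csf1r*, the receptor for macrophage colony-stimulating factor and interleukin 34, was at nearly the same level in all lines. Its brighter probe (A_55_P2025078, NM_001037859) had scaled signals of 682 ± 68.5 in Colon26, 691 ± 69.2 in LuM1 and 675 ± 67.6 in NM11. No pair of lines differed beyond the scanner error. The log2 ratio of LuM1 over Colon26 was 0.02 with an error of 0.20, and that over NM11 was 0.03. Among the 12249 genes detected on all arrays, 246 (2.01%) had a ratio of LuM1 over Colon26 at most as far from 1. The second probe (A_55_P2025073) gave 258 ± 26.4, 250.3 ± 25.4 and 208 ± 21.1 in the same order, so that NM11 was lowest, with a log2 ratio of LuM1 over NM11 of 0.27 and an error of 0.21. The sign of the ratio over Colon26 changed between settings, above 0 under 9 and below 0 under 3, and all of these values lay between -0.04 and 0.46 on the log2 scale. The ratio of LuM1 over NM11 was above 0 under all 12 settings, from 0.03 to 0.62. That of NM11 over Colon26 ran from -0.50 to 0.02. The values 0.62 and -0.50 came from scaling to *Hprt*.

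*Cd14* encodes the surface protein that passes bacterial lipopolysaccharide to the TLR4 complex. Its brighter probe (A_55_P2804638, NM_009841) had scaled signals of 1153 ± 115 in Colon26, 4175 ± 418 in LuM1 and 988 ± 98.9 in NM11. LuM1 stood alone at the top, and the other lines were close to each other. The level in LuM1 cells was 3.62-fold that in Colon26 cells, or 1.86 on the log2 scale (scanner error 0.20). Over NM11 cells the ratio was 4.23-fold, or 2.08 on the log2 scale, with the same error. NM11 was below Colon26 by a log2 ratio of -0.22, about the size of the error. The second probe (A_51_P172853) gave ratios of 3.66 and 4.51, so both probes placed the lines in the same order. Of the 12249 genes detected on all arrays, 444 (3.62%) were raised at least as much in LuM1 over Colon26 and 224 (1.83%) at least as much over NM11.

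DAP12, encoded by *Tyrobp*, and the Fc receptor gamma chain, encoded by *Fcer1g*, are membrane adaptors whose ITAM motifs recruit the kinase Syk. *Tyrobp* was read by 1 probe (A_51_P261517, NM_011662), which was not significantly above background on any array. Its background-subtracted brightness was -0.409 in Colon26, -0.511 in LuM1 and 3.23 in NM11. Among the negative controls, 61, 54 and 20 spots, respectively, were at least as bright. *Tyrobp* therefore could not be separated from the negative controls in any line.

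*Fcer1g* (A_51_P405476, NM_010185) was detected in every line at low signals of 31.3 ± 6.88 in Colon26, 69.9 ± 8.44 in LuM1 and 37.0 ± 5.78 in NM11. LuM1 was highest, and Colon26 and NM11 differed by less than the scanner error (log2 0.24, error 0.39). The level in LuM1 cells was 2.24-fold that in Colon26, or 1.16 in log2 (error 0.36), and 1.89-fold that in NM11, or 0.92 in log2 (error 0.28). Both differences exceeded the scanner error, but they lie near the 2-fold threshold. The log2 ratio over Colon26 was 0.97 after quantile normalization and 0.33 after normexp background correction. Over NM11 it fell to 0.64 after quantile normalization and to 0.35 after normexp background correction. It rose past 2-fold over NM11 with the authors' processed values (1.33) and with scaling to *Hprt* (1.51), and also without scaling. In LuM1 cells 4 of the 308 negative controls were as bright as this spot or brighter, and in Colon26 cells 6 were.

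*Lyz2* encodes lysozyme M, the bacteria-digesting enzyme of macrophages and neutrophils. Its probe (A_51_P321150, NM_017372) reached 112 ± 12.1 in LuM1 cells. In Colon26 cells it was 8.96 ± 6.04 and in NM11 cells 16.1 ± 4.58, both significantly but not well above background. Only LuM1 was detected, and the ratio was at least 4.24-fold over Colon26 and at least 5.72-fold over NM11 (log2 bounds of 2.08 and 2.52). Under normexp background correction these became 1.04 and 0.96, the latter just under 2-fold. Of the 719 genes detected in LuM1 cells only, 193 had both bounds at least as high.

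*Lyz1*, the neighbouring lysozyme gene known from Paneth cells, was read by a probe of its own (A_55_P2181738, NM_013590), which was detected in all lines. Its signals were 34.6 ± 6.55 in Colon26, 465 ± 46.7 in LuM1 and 68.8 ± 8.01 in NM11. The ratio was 13.4-fold over Colon26 and 6.76-fold over NM11, with LuM1 highest as for *Lyz2*. Because the coding sequences of these paralogs are very similar, signal from one may be read by the probe of the other, which was not tested. Their promoters are printed because both lysozyme genes stood highest in LuM1 cells. Each is the 250 bases before the start site in RefSeq's GRCm38.p6 annotation, on the minus strand of chromosome 10, at chr10:117282273-117282522 for *Lyz2* and chr10:117292869-117293118 for *Lyz1*. Capitals mark the only match, on either strand, to the ETS-family core AGGAAGT, which in both begins 100 bases before the start. The windows share 152 of 250 bases (60.8%) when set side by side without gaps, and 115 of the 125 bases nearest the start (92.0%).
Lyz2 promoter: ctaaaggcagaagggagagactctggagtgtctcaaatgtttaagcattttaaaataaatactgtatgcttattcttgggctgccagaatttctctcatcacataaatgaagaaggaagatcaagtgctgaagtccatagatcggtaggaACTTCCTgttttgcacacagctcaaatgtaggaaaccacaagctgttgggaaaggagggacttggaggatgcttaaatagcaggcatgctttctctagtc
Lyz1 promoter: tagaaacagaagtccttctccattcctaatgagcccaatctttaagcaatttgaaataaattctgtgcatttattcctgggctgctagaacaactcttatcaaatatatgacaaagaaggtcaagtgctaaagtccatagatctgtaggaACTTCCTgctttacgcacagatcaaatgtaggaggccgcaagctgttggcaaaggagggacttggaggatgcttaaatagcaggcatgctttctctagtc
Among all 32851 promoter windows of this length, 7.69% hold AGGAAGT. Both windows of *Ptprc*, a gene detected on no array, also hold it, 1 of them with 2 matches. These windows overlap, and the match in the other window is 1 of the same 2 sites. A match describes the letters and does not show that a factor binds there.

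*Cd68*, which encodes the heavily glycosylated lysosomal membrane protein macrosialin, had the widest range of the 10 genes among those detected on all arrays. Its brighter probe (A_55_P1961943, NM_001291058) had scaled signals of 172 ± 18.1 in Colon26, 5251 ± 525 in LuM1 and 299 ± 30.2 in NM11. LuM1 was far above both other lines, and NM11 was above Colon26 by more than the scanner error (log2 0.80, error 0.21). The level in LuM1 was 30.5-fold that in Colon26, or 4.93 in log2 (error 0.21), and 17.5-fold that in NM11, or 4.13 in log2 (error 0.20). The second probe (A_51_P120470) had signals of 48.7, 1765 and 87.5 and gave ratios of 36.2 and 20.2, so the order was the same on both probes. Over the settings tried, the log2 ratio of LuM1 over Colon26 lay between 4.49 and 5.38. Of the 12249 genes detected on all arrays, 44 (0.359%) were raised at least as much over Colon26 and, likewise counted, 44 over NM11.

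The promoter of *Cd68* is printed as that of the gene with the largest measured ratio among the 10. It lies at chr11:69666171-69666420 (GRCm38.p6, minus strand, 250 bases before the start). Capitals mark 1 match to GAGGAA, the purine-rich core that PU.1 reads, which begins 225 bases before the start, and 2 matches to the AP-1 element TGANTCA, which begin 149 and 24 bases before it.
Cd68 promoter: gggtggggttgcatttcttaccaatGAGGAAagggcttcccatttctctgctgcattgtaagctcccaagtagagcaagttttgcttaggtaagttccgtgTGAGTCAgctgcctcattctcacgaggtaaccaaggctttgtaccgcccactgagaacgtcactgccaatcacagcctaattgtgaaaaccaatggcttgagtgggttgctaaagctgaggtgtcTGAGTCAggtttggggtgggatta
Both motifs were searched on both strands in the windows of all genes, where 23.3% hold the purine-rich core and 6.75% the AP-1 element. The purine-rich core can overlap AGGAAGT, which has no match in this window. Windows were given for 6 of the 10 genes, and among those of *Ptprc*, *Fcer1g*, *Lyz2*, *Acp5* and *Laptm5* the AP-1 element had no match, while GAGGAA had 1 in a window of *Ptprc* and 1 in that of *Laptm5*.

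The genes whose pair of log2 ratios lay nearest to that of *Cd68*, by Euclidean distance over both comparisons among the 12249 genes, were *Bgn* (distance 0.38), *Col18a1* (0.45), *Alox5ap* (0.47), *Hrct1* (0.58) and *Adamts7* (0.60). Each rests on 3 arrays, that is, on 2 ratios. *Bgn*, which encodes the matrix proteoglycan biglycan, had signals of 156 in Colon26, 3725 in LuM1 and 191 in NM11. *Alox5ap*, which encodes the membrane protein that presents arachidonic acid to 5-lipoxygenase, had 127, 2833 and 147.

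*Acp5* encodes tartrate-resistant acid phosphatase, the histochemical marker of osteoclasts. Its probe (A_55_P2037608, NM_001102405) reached a scaled signal of 107 ± 11.6 with LuM1 RNA, with 14.4 ± 6.03 in Colon26 cells and 5.38 ± 4.21 in NM11 cells, neither of which was well above background. The level in LuM1 was at least 4.06-fold that in Colon26 and at least 5.48-fold that in NM11 (log2 bounds of 2.02 and 2.46). With a looser detection rule, under which signals significantly above background count as measured, the log2 ratios of LuM1 were 2.90 and 4.32 and that of NM11 over Colon26 was -1.42. Normexp background correction instead lowered the bounds to 1.05 over Colon26 and 1.18 over NM11. Of the 308 negative controls, 10 in Colon26, 4 in LuM1 and 14 in NM11 were at least as bright as the *Acp5* spot. In the neighbourhood of the spot, within 10 rows and columns, 2.61% of the spots were detected on the LuM1 array only, against 3.49% over the whole array, and around *Lyz2* the share was 5.95%.

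*Laptm5* encodes a lysosomal membrane protein of haematopoietic cells. Its probe (A_51_P401668, NM_010686) was well above background on no array, with scaled values of 7.61 in Colon26 and 6.91 in LuM1. It was significantly above background in Colon26 and in LuM1. Before scaling, the background-subtracted brightness was 7.94, 7.85 and 2.77, and 19, 19 and 24 of the 308 negative controls were at least as bright. With the detection rule used here it has no ratio. Under the looser rule the log2 ratio of LuM1 over Colon26 was -0.14.

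**Figure D2:**
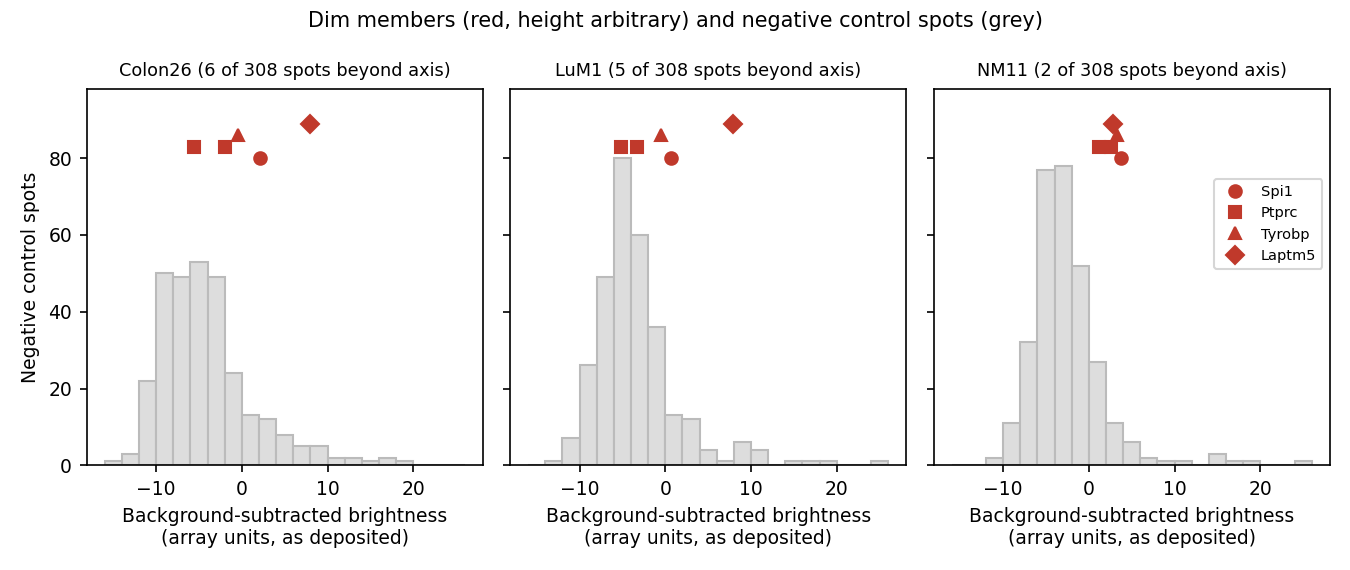
Background-subtracted brightness before scaling of the probes of *Spi1*, *Ptprc* (2 probes), *Tyrobp* and *Laptm5* (red, at arbitrary height) on each array, over the histogram of the 308 negative control spots (grey). The probes lie within the spread of the controls on all 3 arrays, and *Laptm5* lies toward its upper end in Colon26 and LuM1. In NM11 all of these probes lie toward the upper end, with 19 to 33 of the controls at least as bright.

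**Figure D3:**
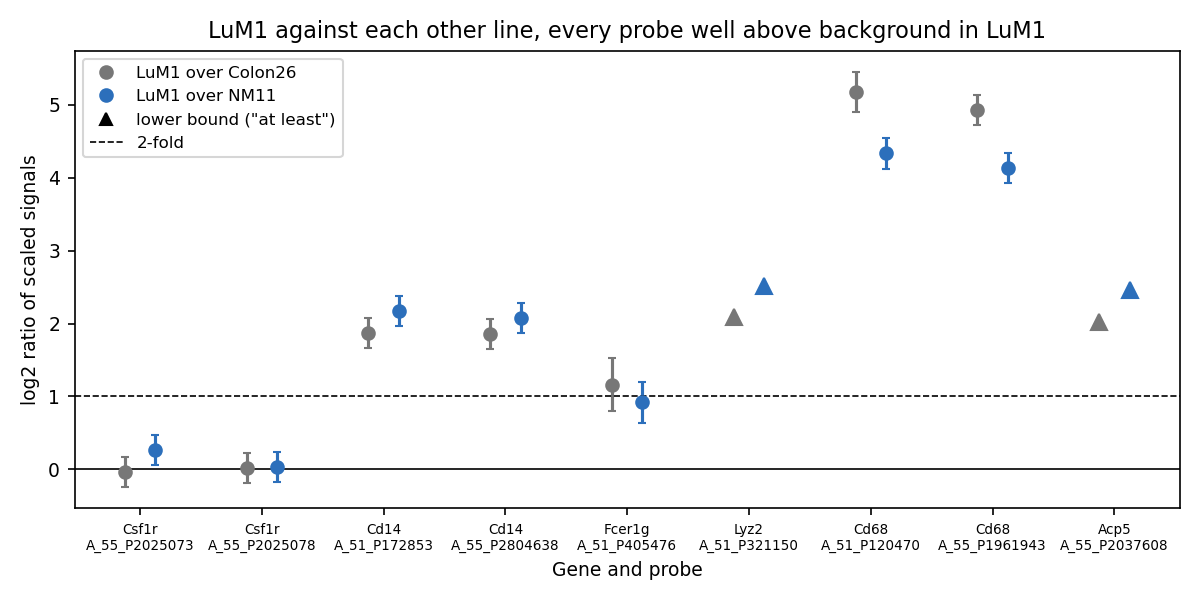
Log2 ratio of LuM1 over Colon26 (grey) and over NM11 (blue) for each probe detected in LuM1 cells. Bars are scanner errors, triangles are lower bounds and the dashed line marks 2-fold. Both probes of *Cd68* lie above 4, both of *Cd14* near 2 and both of *Csf1r* near 0.

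Between NM11 and Colon26, 4 of the 10 genes had a ratio. None was at least 2-fold higher in NM11 (5.03% of all genes) or lower (4.77%), which is close to the shares over all genes. The largest of the 4 was that of *Cd68*, given above. For the 4 genes detected on all arrays the median log2 ratio of NM11 over Colon26 was 0.11, beside -0.02 over 12471 genes detected in both. The corresponding median was 1.51 for LuM1 over Colon26, beside -0.13 over 12397 genes. These medians leave out the 6 genes that lacked a signal in at least 1 line.

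The colony-stimulating factors and their receptors direct the growth of the myeloid lineage, and *Csf1r* belongs among them. Of 10 other genes of this group, 2 were at least 2-fold higher and 2 lower in LuM1 than in Colon26, and 1 was higher and 1 lower than in NM11. Over all genes, 8.1% were higher and 7.33% lower than in Colon26, and 6.98% higher and 5.35% lower than in NM11. The same shares stand beside the counts of the lists below. *Csf1*, which encodes the main *Csf1r* ligand, was the one lower in LuM1 than in both. Its signal was 22497 in Colon26, 6067 in LuM1 and 25517 in NM11, a log2 ratio of -1.89 over Colon26 and -2.07 over NM11. The other ligand gene, *Il34*, had 1043, 757 and 614, with no difference past 2-fold. *Csf3*, which encodes granulocyte colony-stimulating factor, was at 831 in LuM1 and 181 in NM11 and was not detected in Colon26. LuM1 exceeded NM11 by 4.59-fold and Colon26 by at least 31.5-fold. *Csf2*, for granulocyte-macrophage colony-stimulating factor, was detected in LuM1 (616) and NM11 (926) and not in Colon26.

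Transcription factors of blood lineages were given as 22 genes, of which 9 were detected on no array. In LuM1 cells 5 were at least 2-fold higher than in Colon26 with none lower, and 3 were higher and 2 lower than in NM11. *Irf8*, a partner of PU.1 in monocytes, was at 59.0 in Colon26, 1575 in LuM1 and below detection in NM11 (9.99). Its ratio was 26.7-fold over Colon26 and at least 80.5-fold over NM11. *Irf5*, an interferon regulatory factor of macrophages, was detected in LuM1 only, with bounds of 2.42-fold for Colon26 and 3.26-fold for NM11. *Cebpd*, an acute-phase regulator, was high in both sublines (49178 in LuM1 and 35705 in NM11) against 4673 in Colon26. *Cebpa*, which acts in granulocyte precursors, was highest in NM11 instead, at 355 against 79.5 in LuM1 and 88.1 in Colon26.

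The receptors, kinases and linkers that work with *Tyrobp* and *Fcer1g* were given as 26 genes with a probe, and 13 of them were detected on no array. In LuM1 cells 6 (23.1%) were at least 2-fold higher than in both other lines, beside 4.74% of all genes, and 1 was lower than in both. The latter was *Blnk*, a linker known from B cells, at 1557 in Colon26, 332 in NM11 and below detection in LuM1. *Lyn*, a Src-family kinase that phosphorylates ITAMs, was at 291 in Colon26, 5479 in LuM1 and 785 in NM11, an 18.8-fold and a 6.98-fold ratio. *Syk*, the kinase that binds phosphorylated ITAMs, was at 218 in Colon26, 576 in LuM1 and below detection in NM11, 2.65-fold over Colon26 and at least 29.5-fold over NM11. Its downstream phospholipase *Plcg2* ran in the same order, at 183, 536 and 19.8. The linker gene *Lcp2*, for SLP-76, was detected in LuM1 only, at least 12.6-fold and 17.0-fold higher. Within 10 rows and columns of the *Lcp2* spot, 8.62% of the spots were detected on the LuM1 array only, against 3.49% over the whole array. Of the receptors that pair with these adaptors, *Trem2* was highest in NM11 (174) and lower in LuM1 (69.7) and Colon26 (32.6), while *Oscar* was level at 81.8 in Colon26, 85.8 in LuM1 and 90.4 in NM11. *Clec4e*, which encodes the receptor Mincle, was detected in LuM1 only, at least 8.27-fold and 11.2-fold higher, and *Pilrb1* was at least 54.2-fold over Colon26 and 67.7-fold higher than in NM11. The NM11 signal of *Pilrb1* was 21.1 ± 4.61, near the dimmest detected signal of 19.6. *Blnk* and the 13 undetected genes were picked once their values were known, the latter including *Fcgr1*, *Fcgr3*, *Fgr*, *Btk* and *Vav1*.

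Lipopolysaccharide sensing, the pathway of *Cd14*, was given as 14 other genes, and 12 were detected in LuM1. Of these 14 genes, 4 were higher and 2 lower by 2-fold in LuM1 than in Colon26, and 2 were higher and 1 lower than in NM11. *Tlr4*, the signalling receptor of the pathway, was at 595 in Colon26, 1770.4 in LuM1 and 839 in NM11, which is 2.98-fold and 2.11-fold. *Ly96*, for its coreceptor MD-2, differed less, with 6058, 8151 and 5072. *Tlr2*, the receptor for bacterial lipoproteins, was below detection in Colon26 and at 542 in LuM1 and 68.7 in NM11. The LuM1 level was at least 20.5-fold that in Colon26 and a measured 7.89-fold that in NM11. The adaptor gene *Myd88* was lower in LuM1 (2044) than in NM11 (4419) and at 2612 in Colon26.

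Of 35 other phagocyte markers, 19 were detected on no array (35.3% of all genes). In LuM1, 3 (8.57%) passed 2-fold upward against both other lines, beside 4.74% of all genes. These 3 were *S100a8*, *Lyz1* and *Aif1*. *S100a8*, a subunit of calprotectin in neutrophils and monocytes, was at 38.4 in Colon26, 18268 in LuM1 and 287 in NM11, a 476-fold and a 63.6-fold ratio. *Aif1*, which encodes the actin-binding protein IBA1, was detected in LuM1 only (110), at least 4.16-fold and 5.62-fold higher. *Itgam*, the integrin alpha chain CD11b, was bright in all lines, at 5027 in Colon26, 6818 in LuM1 and 4251 in NM11. Among the undetected 19, named after their values were seen, were *Adgre1* (F4/80), *Cx3cr1*, *Mrc1*, *Cd163*, *Msr1*, *C1qa*, *Cybb*, *Ctss* and *S100a9*. The summed scaled signal of the 35 genes was 26165 in Colon26, 45180 in LuM1 and 29620 in NM11. Without *S100a8* it was 26126, 26912 and 29333, so that this 1 gene carried the higher sum in LuM1.

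Genes of osteoclasts other than *Acp5* were detected more often, 19 of 23 in LuM1, 16 in Colon26 and 18 in NM11. The detected shares of all genes were 59.9%, 56.9% and 59.1%, respectively. In LuM1 cells 5 (21.7%) passed 2-fold upward against both other lines, beside 4.74% of all genes. *Ctsk*, the collagen-degrading protease cathepsin K, was at 42.2 in Colon26, 12603 in LuM1 and 96.7 in NM11, a 299-fold and a 130-fold ratio. *Itgb3*, the beta chain of the vitronectin receptor, was detected in LuM1 only (6625), at least 251-fold and 339-fold higher. *Mmp9*, gelatinase B, was at 2311 in LuM1, at least 87.5-fold that in Colon26 and 93.7-fold that in NM11. Its NM11 signal was 24.7 ± 4.97, near the dimmest detected signal of 19.6. *Atp6v0d2*, a proton pump subunit, was detected in LuM1 only (195), at least 7.40-fold and 9.98-fold higher, and *Sirpa* was 34.8-fold and 2.93-fold higher. Within 10 rows and columns of the *Atp6v0d2* spot, 13.4% of the spots were detected on the LuM1 array only, against 3.49% over the whole array. *Nfatc1*, the factor that drives osteoclast genes, was not raised over Colon26, at 364 in Colon26, 327 in LuM1 and 139 in NM11. *Calcr*, *Dcstamp* and *Siglec15* were detected on no array.

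Of 24 genes transcribed across leukocytes, 8 (33.3%) passed 2-fold upward in LuM1 against both other lines, beside 40.0% of the 10 myeloid and osteoclast markers and 4.74% of all genes. Against Colon26 alone 10 were higher and 2 lower, and against NM11 8 were higher and none lower. *Inpp5d*, the inositol phosphatase SHIP1, was at 1517 in LuM1 and undetected elsewhere, at least 57.4-fold and 77.5-fold higher. *Was*, the actin regulator lost in Wiskott-Aldrich syndrome, was at 1017 in LuM1, at least 38.5-fold that in Colon26 and 48.4-fold that in NM11. Its NM11 signal was 21.0 ± 4.47, also close to the lowest detected. *Hcls1*, a substrate of haematopoietic kinases, was at least 29.9-fold that in Colon26. Over NM11 its measured ratio was 35.2-fold, against an NM11 signal of 22.4 ± 4.83, near the dimmest detected signal of 19.6. *Ptpn6*, the phosphatase SHP-1, was 6.63-fold and 10.9-fold higher. *Cytip* was raised in both sublines, at 1097 in LuM1 and 1087 in NM11 against 244 in Colon26. *Cd52*, *Dock2*, *Selplg*, *Vav1* and *Rac2* were detected on no array. The 2 genes lower than in Colon26 were *Lcp1*, the actin bundler L-plastin, which was at 716 in Colon26 and undetected in both sublines, and *Nckap1l*, at 216 in Colon26, 72.6 in LuM1 and 80.6 in NM11. Within 10 rows and columns of the *Lcp1* spot, 12.1% of the spots were detected on the Colon26 array only, against 1.89% over the whole array. Beside the values of these leukocyte genes, *Ptprc*, which nearly all nucleated blood cells carry, was within the negative controls in all lines.

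**Figure D4:**
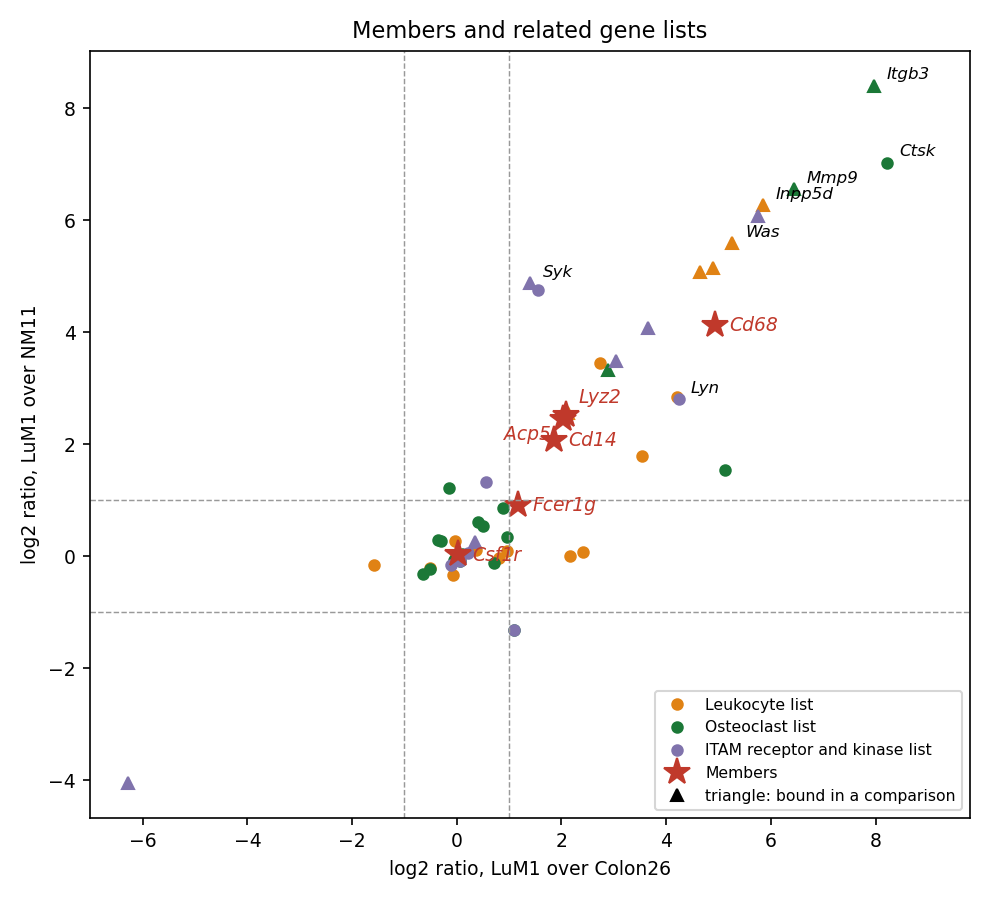
Log2 ratio of LuM1 over Colon26 (horizontal) and over NM11 (vertical) for the members with a ratio in both comparisons (red stars), leukocyte genes (orange), osteoclast genes (green) and ITAM receptor and kinase genes (purple). Triangles hold a bound in at least 1 comparison and dashed lines mark 2-fold. *Cd68*, *Cd14*, *Lyz2* and *Acp5* lie in the upper right with *Ctsk*, *Itgb3*, *Mmp9*, *Inpp5d*, *Was* and *Lyn*, and *Csf1r* lies at the centre.

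Markers of other cell types were counted in the same way, beside 4.74% of all genes higher in LuM1 than in both other lines and 35.3% detected on no array. Of 17 lymphoid genes, 10 were detected on no array and none was higher in LuM1 than in both other lines. *Lck*, a Src-family kinase of T cells, was lower than in both, at 951 in Colon26, 128 in LuM1 and 291 in NM11. *Cd4* (997 in Colon26, 1018 in LuM1 and 1060 in NM11) and *Cd3e* (628, 509 and 553) were among those detected and, like *Csf1r*, nearly level. Of 12 erythroid, megakaryocyte and mast cell genes 2 were higher in LuM1 than in both. One was *Pf4*, the platelet chemokine, which reached 84791 in LuM1 and was undetected elsewhere, at least 3211-fold and 4333-fold higher. The other was *Klf1*, an erythroid transcription factor, at 136 in LuM1. Of 13 endothelial genes 9 were detected on no array and 2 were higher in LuM1 than in both, *Cd93* (342 in Colon26, 15316 in LuM1 and 70.3 in NM11) and *Myct1* (31.5, 1748 and 27.1). Of 10 fibroblast genes 8 were detected in LuM1, with *Dcn* at 27503 and *Pdgfra* at 3965 higher than in both other lines and *Col1a1* at 2247 lower than in both. *Col1a2*, the partner chain of type I collagen, was at 59896 in Colon26, 49.6 in LuM1 and 85275 in NM11, a log2 ratio of -10.24 over Colon26. The labelled tissue was checked with 16 colon epithelial genes, of which 9, among them *Cdh1*, *Krt18*, *Krt19*, *Vil1* and *Muc2*, were detected on no array. *Krt8*, a simple-epithelium keratin, was the 1 gene of the 16 that passed 2-fold upward in LuM1 against both other lines, at 28.9 in Colon26, 108 in LuM1 and 37.1 in NM11. *Gpa33* (1541 in Colon26, 814 in LuM1 and 1545 in NM11) and *Krt20* (651, 54.5 and 157) were also detected in every line, and *Krt20* was lower in LuM1 than in both. *Lcp1*, *Nckap1l*, *Col1a2* and the genes said to be undetected were named after their values were seen.

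**Figure D5:**
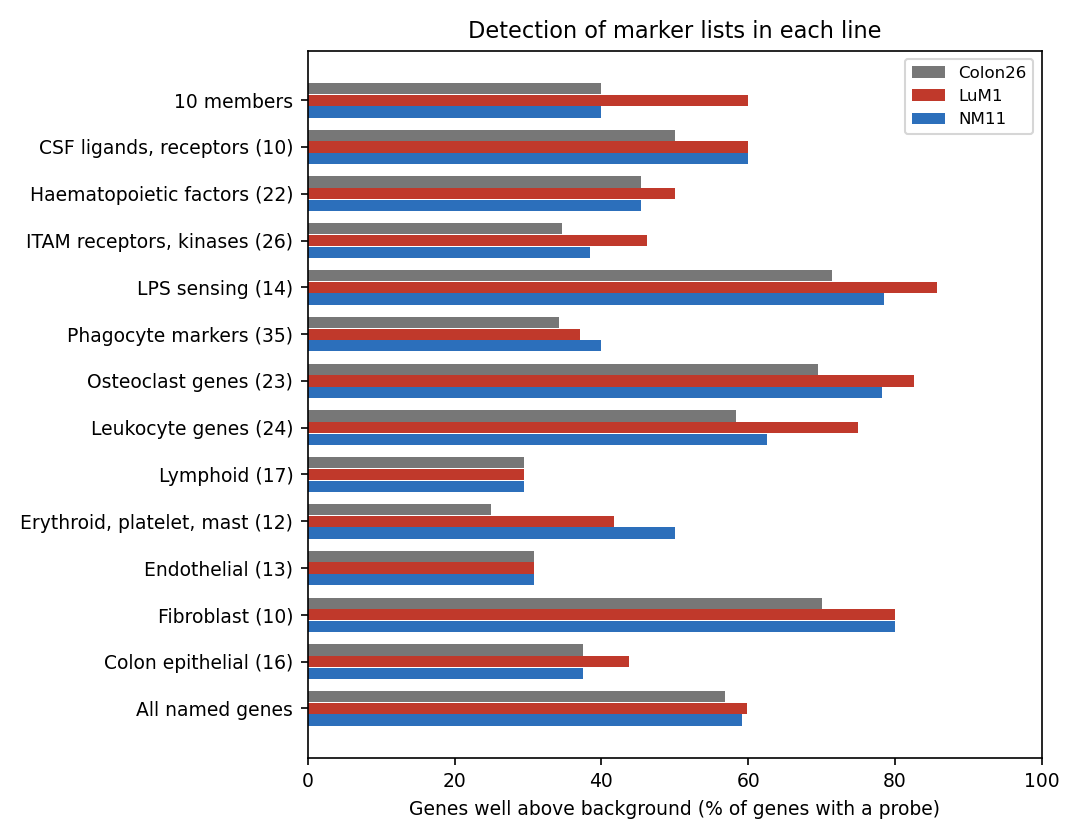
Share of genes well above background in Colon26 (grey), LuM1 (red) and NM11 (blue) for the 10 members, each marker list (number of genes with a probe in parentheses) and all named genes. Of the members, 4, 6 and 4 genes were detected in the respective lines, and the bar of all named genes is likewise longest in LuM1. The leukocyte, osteoclast, ITAM, haematopoietic factor, LPS and colon epithelial lists share this order at the top, while the phagocyte list (40.0%, with 37.1% in LuM1) and the erythroid, platelet and mast cell list have theirs in NM11.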

How the data were processed

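Per the labels, total RNA of 3 mouse lines was labelled with Cy3 and read on 1 Agilent array each. The authors deposited intensity values from Agilent Feature Extraction 11.5.1.1, background-subtracted and detrended, with the software's score of 0 or 1 per spot for outlier, significantly and well above background. They also deposited a table of intensity values that equal the scanner intensity times 0.654 in Colon26, 0.829 in LuM1 and 0.706 in NM11. That table is linear and not centred by gene, its medians are 22.6, 35.4 and 22.2, and the reason for the factors is not given in the sources used here.

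Outlier spots were dropped and spots of a probe averaged. Scaling brought the 75th percentile over all non-control spots of each array to 585.1 (581.1, 625.1 and 551.5 before scaling). Of 56605 probes 58.3% were named through RefSeq accessions (GRCm38.p6). Probes without a name were not used. Array designs use an older build, so the promoter coordinates belong to the RefSeq table only. Called means at least 2-fold, measured or as a bound. With 1 array per line no test was run and precision is limited by the number of arrays. The scripts were tested on simulated data. The members, lists and tests were chosen with earlier results of these data known. Named were all members, from each list up to 6 genes by LuM1 signal with those past 2-fold first, members' direct partners, and the 5 genes nearest *Cd68*. Lists share a few genes. Of 233 symbols listed, 232 had a named probe.

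Alternatives left the arrays unscaled or used the median of detected probes or *Hprt* for scaling. Others were quantile normalization, normexp correction, the authors' values, looser detection, no filter, other rules for probes and a 4-fold threshold. Normexp used an offset of 50 and the median brightness, because the scanner values available here held no mean brightness. The percentile without outlier spots and the AGGAAGT search were added after seeing the data. Python 3.11.15, numpy 2.4.6, pandas 2.3.3, scipy 1.17.1, matplotlib 3.10.9, R 4.3.3 and limma 3.58.1 were used.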

Additional observations from a re-analysis of the deposited data

How the results depend on the processing

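Against Colon26, the count of genes up by 2-fold in LuM1 was 5, fell to 4 with quantile normalization and normexp correction, which lost *Fcer1g*, and was 3 at a 4-fold threshold. Against NM11 it was 4 and ranged from 3 to 5. With looser detection 7 of the 10 genes were counted in Colon26, 7 in LuM1 and 6 in NM11, against 4, 6 and 4 under the main rule. LuM1 then no longer had more detected genes than Colon26, and *Lyz2* and *Acp5* were counted in every line. With looser detection and with no filter on dim probes, 1 gene, *Acp5*, was at least 2-fold lower in NM11 than in Colon26. Of the recomputed counts, 77 were unchanged or stayed within 1.5 times, among them the change from 5 to 4 and the range from 3 to 5. Many of the 77 were 0 both before and after, so the 1.5-fold limit says nothing about them. No direction of a called ratio reversed, but a bound was kept only in its own direction and so could not reverse. Scalings moved all ratios alike: the authors' values shifted the median log2 ratio by 0.45 over Colon26 and 0.41 over NM11, and scaling to *Hprt* by 0.10 and 0.59, and no scaling by 0.11 and 0.18. Low signal over background limits *Fcer1g*, *Lyz2* and *Acp5*. It also limits the size of the ratios over NM11 of *Mmp9*, *Was*, *Hcls1* and *Pilrb1*. No paired analysis was possible because each line has 1 array.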
